A study of Mus musculus with 12 samples.

Results

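Loss of cGAS was followed across both Huntington's disease genotypes of one mouse study: 6 striatal libraries labelled as lacking cGAS were set against 6 labelled as having it. These 12 libraries are all the libraries of the series, and each comes from 1 mouse. With cGAS present there were 3 WT libraries (C57BL/6J control mice) and 3 HD libraries (mice heterozygous for the zQ175 knock-in allele from which the neo cassette was deleted, an expanded CAG repeat in the mouse Htt gene). With cGAS lost there were 3 cGAS-KO libraries and 3 cGAS-KO;HD libraries, the latter from mice that combine the knockout with the knock-in. The sources used here do not state age, sex, litter, hour of collection, the design of the cGAS knockout allele or how it was bred onto the strain. The pooled difference is the value without cGAS minus the value with cGAS, on the log2 scale, with the knock-in genotype as a covariate. Positive values are thus higher without cGAS.

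cGAS is an enzyme that binds DNA in the cytosol and makes the messenger cGAMP. cGAMP activates STING, which through the kinase TBK1 and the transcription factor IRF3 switches on type I interferon, and interferon acts through JAK and STAT proteins on a large set of interferon-stimulated genes. In the brain microglia are regarded as the main cells with an active cGAS-STING pathway, and mutant huntingtin has been linked to DNA damage and cytosolic DNA that could feed it. The pooled comparison asks which transcripts depend on cGAS whether or not the knock-in allele is present.

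Interferon-responsive promoters carry the interferon-stimulated response element, searched here on both strands as GAAA, any 2 bases, and GAAA again. The windows of 3 interferon-stimulated genes are shown because this element is where interferon acts on them, and it is what a reader would look at first for a cGAS-dependent gene. The sequences are from RefSeq (GRCm38.p6), 5′ to 3′ along each gene, 300 bases around the start site with most of the window upstream. Capitals mark the element or its reverse complement, and overlapping matches run together. Isg15 lies on the minus strand at chr4:156200769-156201068, Ifit1 on the plus strand at chr19:34640639-34640938 and Ifit3 on the plus strand at chr19:34583279-34583578.
Isg15: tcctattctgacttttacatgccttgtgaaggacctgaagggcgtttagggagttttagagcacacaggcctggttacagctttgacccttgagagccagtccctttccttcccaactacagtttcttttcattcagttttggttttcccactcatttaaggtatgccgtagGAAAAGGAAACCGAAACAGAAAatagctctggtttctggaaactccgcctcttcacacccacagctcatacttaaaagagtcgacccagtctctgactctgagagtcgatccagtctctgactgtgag
Ifit1: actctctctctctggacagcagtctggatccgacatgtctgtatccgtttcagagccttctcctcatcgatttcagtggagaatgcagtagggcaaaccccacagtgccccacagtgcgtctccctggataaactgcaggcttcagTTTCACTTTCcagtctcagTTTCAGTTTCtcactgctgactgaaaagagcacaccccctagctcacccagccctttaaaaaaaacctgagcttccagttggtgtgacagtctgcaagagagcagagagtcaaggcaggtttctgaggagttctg
Ifit3: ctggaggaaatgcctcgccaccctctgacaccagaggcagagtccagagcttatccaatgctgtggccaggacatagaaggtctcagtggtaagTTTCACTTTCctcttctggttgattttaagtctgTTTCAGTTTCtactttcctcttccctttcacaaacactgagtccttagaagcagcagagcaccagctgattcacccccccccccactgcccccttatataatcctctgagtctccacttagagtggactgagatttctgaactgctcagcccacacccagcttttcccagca
The Isg15 window holds 3 matches and the Ifit1 and Ifit3 windows hold 2 each. Among interferon-stimulated genes 61 had a window in the table and 31 of them held the motif, whereas 3.44% of all 32851 windows did.

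Library totals ran from 59195327 to 72765623 counts, and 26827 to 28348 genes were detected per library. Genes with at least 10 counts in at least 3 libraries, 21482 in all, were tested. Library cGAS-KO replicate 3 stood apart, with 11.51% of counts from mitochondrially encoded genes where the other 11 libraries had 5.3% to 9.03%. Measured as chi-square per gene, it lay 157 and 195 from its group mates, and other pairs of one group lay 9.26 to 80.9 apart. Cortical projection neuron genes summed to 1670 to 4070 CPM (counts scaled to a common library size) in cGAS-KO and 1420 to 3080 in WT. They summed to 1490 to 1710 CPM in cGAS-KO;HD and 1160 to 1360 in HD, so each cGAS-KO;HD library was above each HD library. Choroid plexus genes summed to 521 to 3520 CPM in WT, 728 to 1790 in cGAS-KO, 909 to 3600 in HD and 638 to 2230 in cGAS-KO;HD. Libraries with high Xist, which silences one X in females, numbered 3 of the 6 with cGAS and 3 of the 6 without. Ppp1r1b, a defining gene of the labelled tissue, was at 227 CPM or more in every library. Adora2a, another such gene, ran from 21.5 CPM in HD replicate 3 to 154 in cGAS-KO replicate 1. WT replicate 1 lay 50.6 and 80.9 from its group mates, with 1420 CPM of cortical and 3520 of choroid plexus genes. In WT and cGAS-KO, sex-linked genes summed to 1820 CPM in WT replicate 1, 2170 in cGAS-KO replicate 3 and 647 to 703 elsewhere. Results that lean on cGAS-KO replicate 3, or on WT replicate 1 as well, are also given with these left out. They were the highest cGAS-KO and lowest WT library for cortical genes, so leaving out both narrows such differences. It also removes both high sex-linked sums without the knock-in allele.

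No gene passed edgeR's quasi-likelihood test for loss of cGAS at a Benjamini-Hochberg adjusted p under 0.05 (0% of 21482), and none did at 0.1. The smallest edgeR adjusted p was 0.417. For the knock-in allele the same fit called 2975 genes (13.8%), 1690 lower (7.87%) and 1285 higher (5.98%). The effect of cGAS loss depended on the knock-in genotype for 1 gene (0.00466%) by the edgeR interaction test, Mid1-ps1. At an unadjusted p under 0.05, edgeR gave 1953 genes for loss of cGAS (9.09%), of which 875 were lower (4.07%) and 1078 higher (5.02%). DESeq2, run as an alternative, called 5 of 21474 genes (0.0233%), all lower without cGAS: Mir6236, CT010467.1, Flt1, Ciart and Gm44663. limma-voom called none.

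The differences were small as well as uncalled. The median absolute log2 difference was 0.12, against 0.16 for the knock-in allele, and 16 of 15257 genes with a mean of at least 1 CPM differed by more than 2-fold, against 285 for the knock-in allele. The biological coefficient of variation was 17.6%. The whole 95% interval lay within 1.5-fold either way for 13835 genes and within 2-fold for 17484. These intervals are per gene and are not adjusted for the number of genes.

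Precision followed the level of the gene. Among 8094 genes between 10 and 100 CPM the interval was within 1.5-fold for 95.8%, and its median half-width was 0.15, equal to 1.11-fold. Among 4799 genes between 1 and 10 CPM 71.2% were bounded within 1.5-fold and 94.5% within 2-fold. Below 1 CPM there were 6225 genes, of which 6.55% were bounded within 1.5-fold and 41.4% within 2-fold and the median half-width was 0.79, equal to 1.73-fold.

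**Figure D1:**
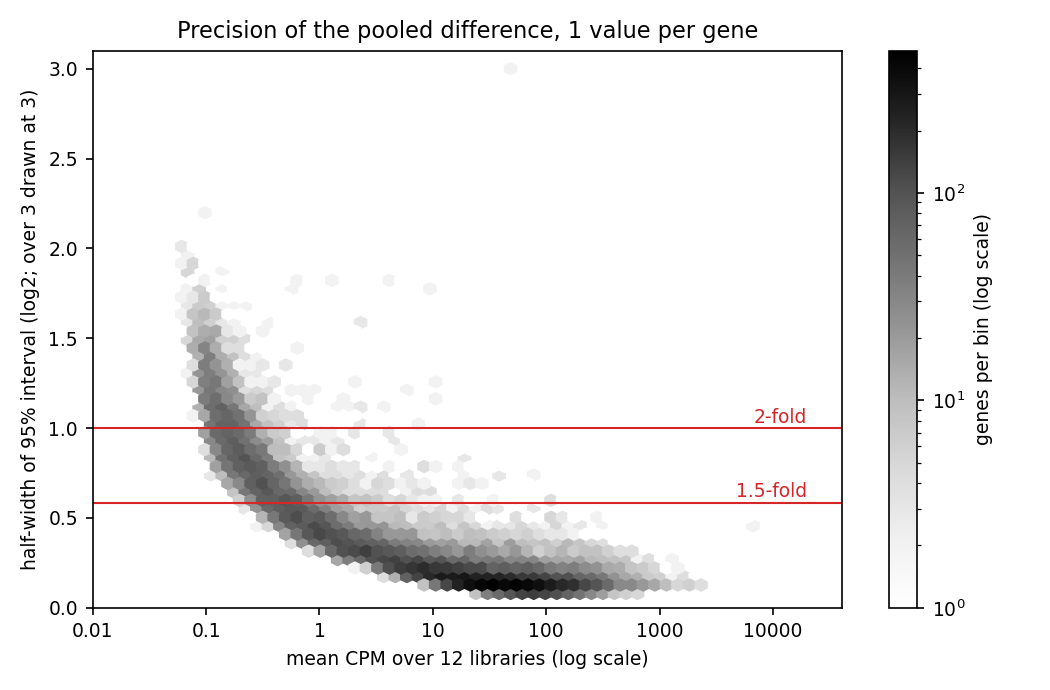
Half-width of the 95% interval of the log2 difference (vertical axis) against the mean CPM over 12 libraries (log scale), as a density of genes, with red lines at 1.5-fold and 2-fold. The cloud falls steeply up to 10 CPM and is flat above, where the median half-width was 0.15 between 10 and 100 CPM.

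Cgas itself was the first gene to examine. It lies on the minus strand of chromosome 9 at 78430526 to 78443237 (GENCODE M21, GRCm38). It was a rare transcript, at 1.56, 1.35 and 1.32 CPM in the WT libraries and 0.877, 0.572 and 0.882 in cGAS-KO. In HD it measured 1.13, 1.07 and 1.26 CPM and in cGAS-KO;HD 1.15, 1.15 and 0.798. The groups did not overlap without the knock-in allele but overlapped with it. The pooled log2 difference was -0.50 ± 0.19 (SE, 95% interval -0.90 to -0.11, edgeR adjusted p = 0.54), and an exact two-sided permutation test within genotypes gave p = 0.03, where 0.005 is the smallest possible. It was -0.86 ± 0.24 between cGAS-KO and WT and -0.16 ± 0.23 between cGAS-KO;HD and HD, a difference that missed the edgeR interaction test (unadjusted p = 0.0543). Whether the remaining counts come from a part of Cgas that the allele leaves in place was not tested. Cgas is thus a weak check of the labels, and its counts do not tell cGAS-KO;HD from HD. Htt, the gene of the knock-in, differed by -0.03 ± 0.05 with loss of cGAS (edgeR adjusted p = 0.806).

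The rest of the sensing pathway stayed close to its level with cGAS. Of 41 listed genes 36 were tested and none was called. At an unadjusted edgeR p under 0.05, 3 were lower and 1 higher (11.1%, against 9.09% of all genes). The median was -0.01 against -0.002 for all genes. The intervals of 29 members lay within 1.5-fold and those of 35 within 2-fold. Sting1, the cGAMP receptor (Tmem173 in this annotation), measured 4.89, 3.61 and 3.70 CPM in WT, 3.26, 4.50 and 5.93 in cGAS-KO, 4.38, 4.90 and 3.35 in HD and 5.00, 4.82 and 4.82 in cGAS-KO;HD. Its groups overlapped in both knock-in genotypes, and the pooled log2 difference of Tmem173 was 0.19 ± 0.15 (interval -0.12 to 0.50). The members below that unadjusted threshold, other than Cgas, were Pqbp1, an adaptor between DNA and cGAS, at 0.26 ± 0.11, the DNA helicase Ddx41 at -0.13 ± 0.05 and Lrrc8a, the shared subunit of anion channels that carry cGAMP, at -0.25 ± 0.11. Enpp1, which degrades cGAMP outside cells, was at 0.08 ± 0.08, and the nuclease Samhd1 at 0.03 ± 0.08. Zbp1, a sensor of left-handed nucleic acids with a mean of 0.331 CPM, had the interval that passed 2-fold (-0.64 to 1.36). Trim38, Dnase1l3, Slc46a2, Lrrc8e and Trex1 had too few counts to test, and Trex1 and Slc46a2 were listed at 0 in every library.

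Kinases and transcription factors below STING numbered 23. In edgeR 1 was lower and 1 higher at an unadjusted p under 0.05 (8.7%, against 9.09% of all genes). The list median was -0.04, and 21 members were bounded within 1.5-fold and 23 within 2-fold. Tbk1 measured 49.6 to 54.6 CPM in WT, 51.6 to 56.1 in cGAS-KO, 51.8 to 53.3 in HD and 50.2 to 51.9 in cGAS-KO;HD, with a log2 difference of 0.00 ± 0.05 (interval -0.10 to 0.10). Irf3 differed by -0.04 ± 0.08 and Rela, a subunit of NF-κB, by 0.01 ± 0.06. Nfkbia, the NF-κB inhibitor that NF-κB itself induces, had the smallest p of the list. It measured 17.6, 18.5 and 18.2 CPM in WT and 14.7, 15.9 and 12.6 in cGAS-KO, and 14.8, 18.2 and 16.1 in HD against 16.3, 16.1 and 13.8 in cGAS-KO;HD. The values were separate without the knock-in allele and mixed with it (pooled -0.21 ± 0.08, edgeR adjusted p = 0.54). Tank, a scaffold of TBK1, stood at 0.26 ± 0.11 (edgeR adjusted p = 0.54). With WT replicate 1 and cGAS-KO replicate 3 left out Tank was at 0.13 and Pqbp1 at 0.17, and 0 genes of the list below STING were past that threshold.

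Interferon receptors and JAK-STAT genes, 16 in all, had 0 members past an unadjusted edgeR p of 0.05 and a median of 0.00, and all 16 were bounded within 2-fold. Ifnar1 and Ifnar2, the type I interferon receptor chains, differed by 0.04 ± 0.05 and 0.01 ± 0.07, and Stat2 by -0.02 ± 0.06. Jak2 had the smallest p, at 0.16 ± 0.08.

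Interferon-stimulated genes lay on both sides of zero. Of 81 listed 79 were tested, 2 were lower and 0 higher at an unadjusted edgeR p under 0.05 (2.53%, against 9.09% of all genes), and the median was -0.02. The list median was -0.12 between cGAS-KO and WT and 0.05 between cGAS-KO;HD and HD. Summed over the list the level was 668, 622 and 609 CPM in WT against 529, 557 and 766 in cGAS-KO, where replicate 3 alone was above WT. In HD the sums were 675, 741 and 665 CPM against 730, 768 and 702 in cGAS-KO;HD, which overlap. The pooled list median thus averages unlike leans of the 2 pairs. With cGAS-KO replicate 3 left out it was -0.10, with 3 lower and 0 higher, and with WT replicate 1 left out as well it was -0.05, with 2 lower and 0 higher. Intervals lay within 1.5-fold for 48 members and within 2-fold for 72. The members lower at that threshold were Slfn5, a Schlafen family gene, at -0.42 ± 0.15, and Ifi35 at -0.37 ± 0.16. Slfn5 measured 5.84, 3.49 and 4.11 CPM in WT and 3.09, 4.02 and 4.14 in cGAS-KO, which overlap, and 4.40, 5.57 and 4.72 in HD against 2.84, 3.98 and 3.02 in cGAS-KO;HD, which do not.

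The genes whose promoters are shown above behaved alike in lacking a separation that held in both genotypes. Ifit3, an antiviral RNA-binding protein, was at 18.0, 17.6 and 15.2 CPM in WT, 9.92, 15.1 and 14.4 in cGAS-KO, 17.4, 21.8 and 19.2 in HD and 17.2, 21.4 and 25.2 in cGAS-KO;HD, so it was lower in the first pair of groups and overlapped in the other. Its pooled difference was -0.12 ± 0.13 (interval -0.40 to 0.17). Ifit1 was at 5.87, 5.62 and 4.93 CPM in WT and 2.42, 4.47 and 9.34 in cGAS-KO, a range that encloses all WT values. In HD it was at 5.76, 9.15 and 6.43 CPM and in cGAS-KO;HD at 8.67, 10.8 and 8.16, which overlap, and its pooled difference was 0.18 ± 0.25 (interval -0.37 to 0.73). Isg15, a ubiquitin-like modifier, measured 0.876, 1.01 and 1.12 CPM in WT and 0.374, 0.397 and 0.899 in cGAS-KO, and 1.29, 1.23 and 1.35 in HD against 0.656, 1.16 and 1.71 in cGAS-KO;HD. The pooled difference of Isg15 was -0.47 ± 0.27, with an interval of -1.04 to 0.10 that just passes 2-fold.

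Of the 31 listed interferon-stimulated genes with the element in their windows 30 were tested, 1 was past an unadjusted edgeR p of 0.05, and the median was -0.04 with a range of -0.47 to 0.18. Over all genes, 504 tested genes with the motif had 18 lower and 23 higher at that threshold (8.13%) and a median of 0.00. The 13129 tested genes whose windows lacked it had 508 lower and 743 higher (9.53%) and the same median. The members of the interferon list not bounded within 2-fold were Isg15, Oas1a, Mx1, Ccl5, Oas1g, Ifi44 and Cxcl10, all with means of about 1 CPM or less. With cGAS-KO replicate 3 left out Mx1 went from 0.28 to -0.10, Ccl5 from 0.35 to -0.14, Ifi44 from 0.19 to -0.36 and Cxcl10 from 0.09 to -0.46, so these members have no settled direction.

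**Figure D2:**
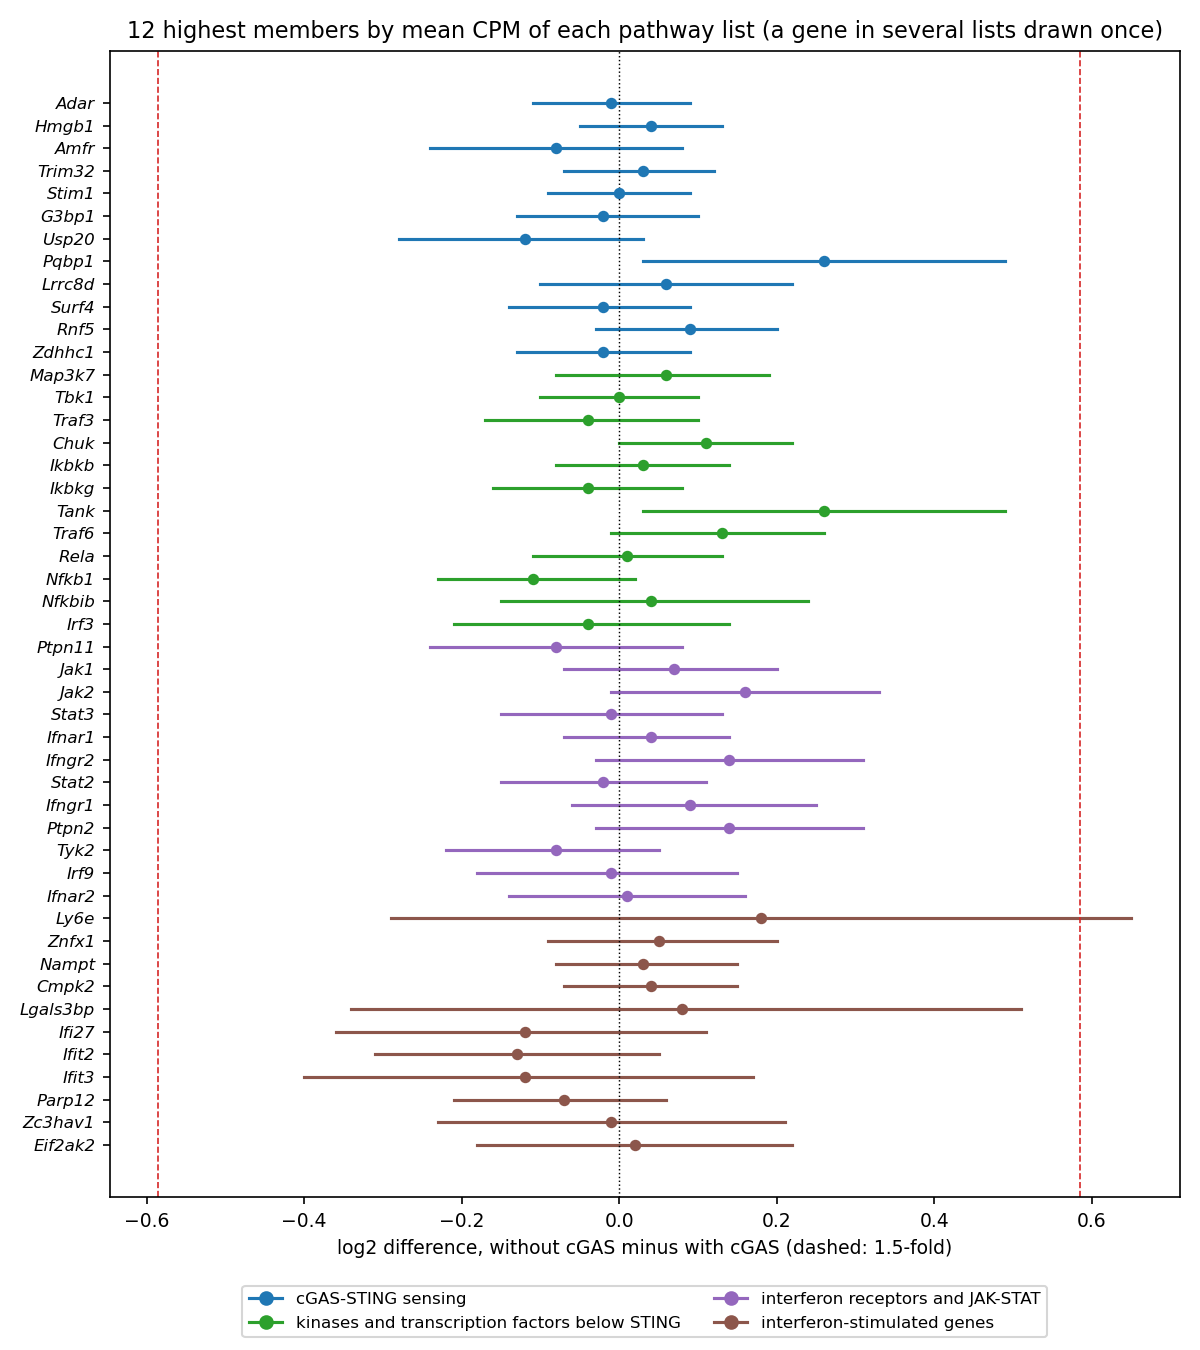
Pooled log2 difference with its 95% interval for the 12 members with the highest mean CPM in each of 4 pathway lists, coloured by list, with dashed lines at 1.5-fold. All intervals drawn lie inside the dashed lines except that of Ly6e (0.18 ± 0.21), and Tbk1, Irf3, Stat2 and Ifnar1 lie between -0.04 and 0.04.

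Antigen presentation genes, which interferon also induces, leaned lower. The list median was -0.30 between cGAS-KO and WT and -0.08 between cGAS-KO;HD and HD. Of 24 tested members 6 were lower and 1 higher at an unadjusted edgeR p under 0.05, where 4.07% of all genes were lower and 5.02% higher. In the pooled comparison 22 lay below zero (91.7%, against 50.5% of all genes), and the median was -0.18. Tap1, which pumps peptides into the endoplasmic reticulum, measured 4.63, 3.75 and 2.45 CPM in WT and 2.61, 2.69 and 2.44 in cGAS-KO, and 3.88, 4.09 and 5.04 in HD against 3.19, 4.01 and 3.05 in cGAS-KO;HD. Both pairs overlapped, and the pooled difference was -0.41 ± 0.15. H2-K1, a class I heavy chain, was at -0.29 ± 0.12, Tap2 at -0.30 ± 0.14, and H2-Q4 and H2-Q6, which resemble other class I genes in sequence and may share reads with them, at -0.37 ± 0.15 and -0.60 ± 0.26. B2m, the light chain, went the other way at 0.31 ± 0.26. It measured 135, 103 and 87.9 CPM in WT against 76.1, 73.1 and 212 in cGAS-KO, where replicate 3 alone was above WT. In HD it was at 109, 117 and 91.3 CPM against 170, 150 and 118 in cGAS-KO;HD, which do not overlap. Psme1, a proteasome activator subunit, was higher in every library without cGAS than in any with it of the same knock-in genotype: 31.4, 29.6 and 28.0 CPM in WT, 31.5, 33.2 and 33.1 in cGAS-KO, 36.4, 36.7 and 37.8 in HD and 43.9, 40.3 and 39.4 in cGAS-KO;HD (0.15 ± 0.05). With WT replicate 1 and cGAS-KO replicate 3 left out the count of lower members was 2 and the median was -0.11.

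Of 31 cytokine and chemokine genes 21 were tested. At an unadjusted edgeR p under 0.05, 2 were lower (9.52%, against 4.07% of all genes) and 0 higher. Of those tested 13 (61.9%) were bounded within 2-fold, against 81.4% of all genes. The cytokines Il1b, Il6 and Tnf had too few counts to test, and Ifnb1, the gene of interferon beta, was listed at 0 in all 12 libraries. Cxcl12, a chemokine that endothelial and stromal cells make, measured 24.3, 25.8 and 24.2 CPM in WT against 14.3, 16.0 and 21.5 in cGAS-KO, and 14.0, 17.4 and 15.4 in HD against 12.9, 16.1 and 11.3 in cGAS-KO;HD. It was separate in the first pair and overlapped in the other (-0.37 ± 0.11). All 33 microglia genes were bounded within 2-fold and 31 within 1.5-fold, with 0 past an unadjusted edgeR p of 0.05 and a median of 0.02. P2ry12, the homeostatic purine receptor, had the smallest p of that list at 0.21 ± 0.10, and the growth factor receptor Csf1r was at -0.06 ± 0.05. Disease-associated microglia genes had 16 of 24 (66.7%) bounded within 2-fold and 1 lower (4.17%, against 4.07% of all genes). Their median was -0.22, with -0.34 between cGAS-KO and WT and 0.04 between cGAS-KO;HD and HD. The pooled median was -0.05 without WT replicate 1 and cGAS-KO replicate 3. Complement genes had 1 of 20 lower and 1 higher (10%, against 9.09% of all genes), and a median of -0.13 that was 0.01 without these libraries. Between cGAS-KO and WT it was -0.29 and between cGAS-KO;HD and HD 0.07.

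**Figure D3:**
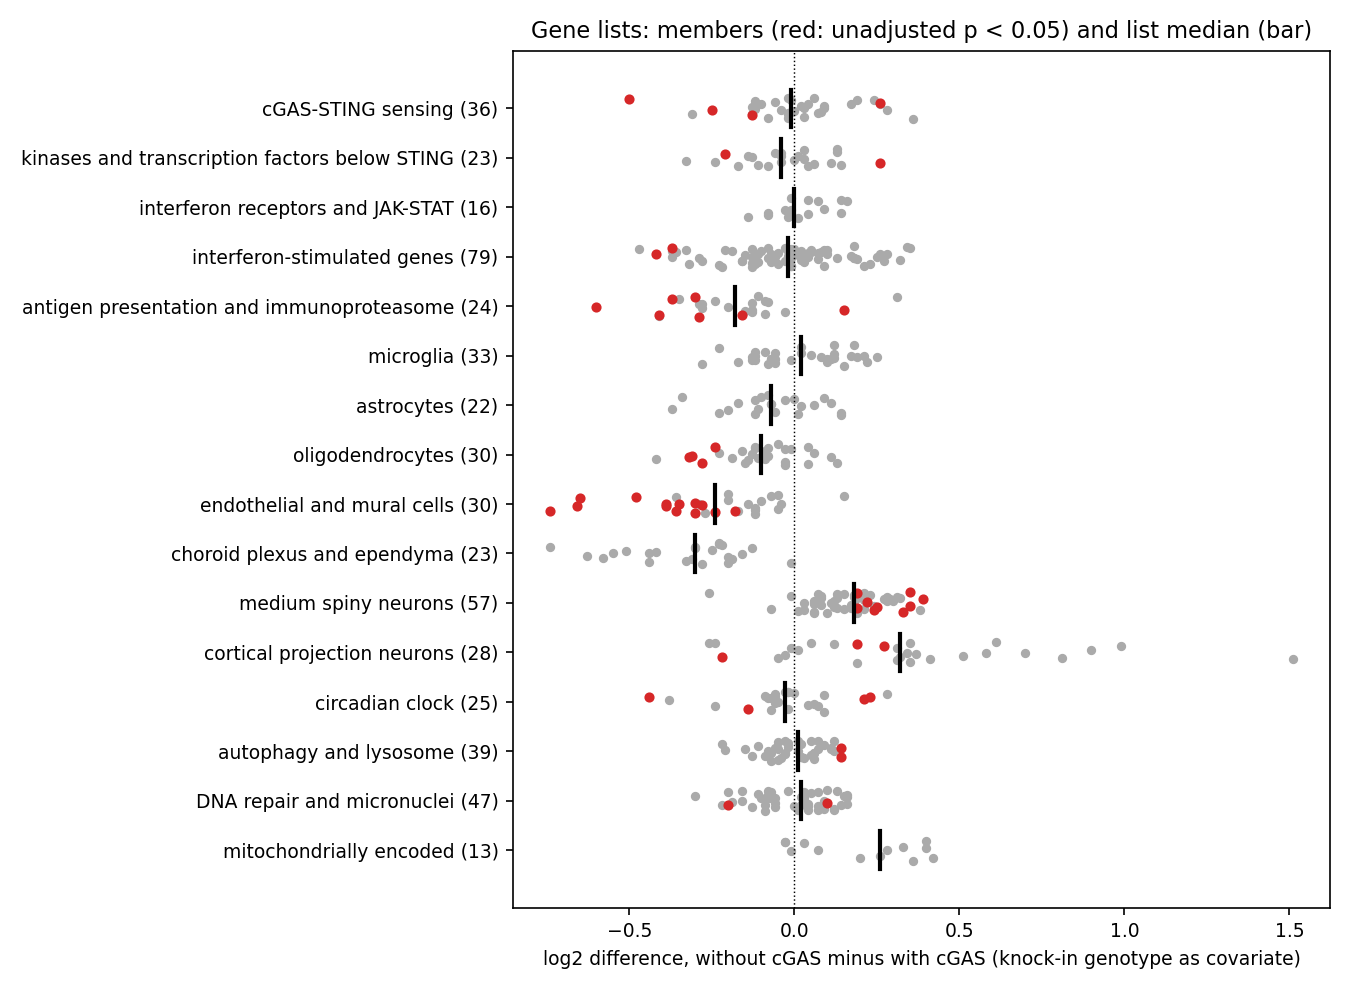
Log2 difference of every tested member of 16 gene lists (points, red where the unadjusted edgeR p was under 0.05) with the list median as a bar and the number tested in parentheses. The interferon and microglia medians sit at -0.02 and 0.02, the endothelial and mural list lies left of zero with 13 red members, and the medium spiny neuron list lies right of zero with 9.

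The group with the largest share of members at a small p was that of blood vessels. Of 30 endothelial and mural genes 13 were lower and 0 higher at an unadjusted edgeR p under 0.05 (43.3%, against 4.07% of all genes lower), 29 lay below zero, and the median was -0.24. The lean was in both knock-in genotypes, with medians of -0.20 between cGAS-KO and WT and -0.32 between cGAS-KO;HD and HD. It was -0.23 with 13 lower when WT replicate 1 and cGAS-KO replicate 3 were left out. Endothelial genes carried most of it: 12 of 18 were lower at that threshold with a median of -0.30, against 1 of 12 genes of pericytes and smooth muscle with a median of -0.16. The difference between these 2 subsets was not tested. In whole-tissue RNA, fewer endothelial cells and less of these transcripts per cell cannot be told apart. No member passed the edgeR test over all genes, Flt1 passed the DESeq2 test, and this list was drawn up with earlier results of these data known.

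Flt1 encodes VEGF receptor 1, a decoy that limits VEGF signalling in endothelium. It lies on the minus strand of chromosome 5 at 147561604 to 147726011. It measured 28.9, 28.2 and 25.6 CPM in WT, 18.8, 24.3 and 20.8 in cGAS-KO, 20.7, 24.2 and 22.6 in HD and 17.7, 15.5 and 11.8 in cGAS-KO;HD. Each library without cGAS was below each library with it of the same knock-in genotype. The pooled difference was -0.48 ± 0.10 (interval -0.68 to -0.27, a mean decrease of 28.1%), with an edgeR adjusted p of 0.54 and a DESeq2 adjusted p of 0.0338. It was -0.37 without the knock-in allele and -0.58 with it. The Flt1 promoter is shown because the gene leads the vascular group. It lies on the minus strand at chr5:147725962-147726261 (RefSeq, GRCm38.p6), with GGAA, the core that ETS factors of endothelium bind, and its reverse complement in capitals.
Flt1: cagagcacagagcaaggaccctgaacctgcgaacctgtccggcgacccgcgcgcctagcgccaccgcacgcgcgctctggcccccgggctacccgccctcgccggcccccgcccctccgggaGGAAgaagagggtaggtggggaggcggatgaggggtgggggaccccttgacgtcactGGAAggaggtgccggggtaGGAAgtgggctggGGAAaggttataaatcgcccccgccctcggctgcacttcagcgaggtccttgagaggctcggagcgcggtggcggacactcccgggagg
The window holds 4 matches. So short a core is in 96% of all windows, with a median of 3 per window, and in 91.7% of the windows of the vascular list.

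Ptprb, the phosphatase that restrains the receptor Tie2, is an endothelial gene outside the list that was named for its small p. It measured 24.5, 25.5 and 21.0 CPM in WT and 15.9, 19.3 and 19.8 in cGAS-KO, and 16.7, 19.9 and 21.1 in HD against 14.9, 15.6 and 12.1 in cGAS-KO;HD. It was separate in both pairs, at -0.40 ± 0.09. Abcb1a, a list member and the drug efflux pump of the blood-brain barrier, measured 19.0, 14.8 and 16.3 CPM in WT against 13.8, 14.5 and 12.0 in cGAS-KO, and 13.8, 15.2 and 15.3 in HD against 11.1, 12.4 and 8.73 in cGAS-KO;HD, again without overlap (-0.39 ± 0.09). Vwf, von Willebrand factor, was at 11.3, 7.50 and 7.89 CPM in WT against 4.45, 5.61 and 5.82 in cGAS-KO, and at 4.83, 7.34 and 6.35 in HD against 5.48, 3.69 and 3.38 in cGAS-KO;HD. That gene overlapped in the knock-in pair (-0.66 ± 0.15).

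Tie1, an endothelial receptor kinase, was at -0.74 ± 0.21, with 4.44, 4.06 and 3.26 CPM in WT against 2.50, 3.90 and 1.70 in cGAS-KO, and 1.75, 3.57 and 3.35 in HD against 1.43, 1.39 and 1.64 in cGAS-KO;HD. Robo4, a guidance receptor that stabilises vessels and, like Ptprb, no list member, was at -0.83 ± 0.20, and the difference was -0.39 without and -1.31 with the knock-in allele (edgeR interaction, unadjusted p = 0.0156, adjusted p = 1). Cldn5, the claudin that seals the blood-brain barrier, was at 8.06, 8.29 and 7.84 CPM in WT against 7.16, 8.43 and 4.87 in cGAS-KO, which overlap. In HD it was at 5.83, 9.02 and 10.7 CPM against 3.89, 4.66 and 3.60 in cGAS-KO;HD, which do not (pooled -0.65 ± 0.19). The other list members lower at that threshold, besides Flt1, Abcb1a, Vwf, Tie1 and Cldn5, were Kdr, VEGF receptor 2, at -0.36, Tek, the receptor Tie2, at -0.35, the junction proteins Cdh5 and Esam at -0.39 and -0.28, Egfl7 and Eng at -0.30 each, Itm2a at -0.24 and the mural gene Vtn at -0.18. The pericyte receptor Pdgfrb was at -0.04 and Rgs5 at -0.12, and the endothelial sialomucin Emcn was the one member above zero, at 0.15. Summed over the list the level was 633 to 733 CPM in WT, 593 to 644 in cGAS-KO, 609 to 708 in HD and 523 to 619 in cGAS-KO;HD, so the sums overlapped slightly in both pairs.

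**Figure D4:**
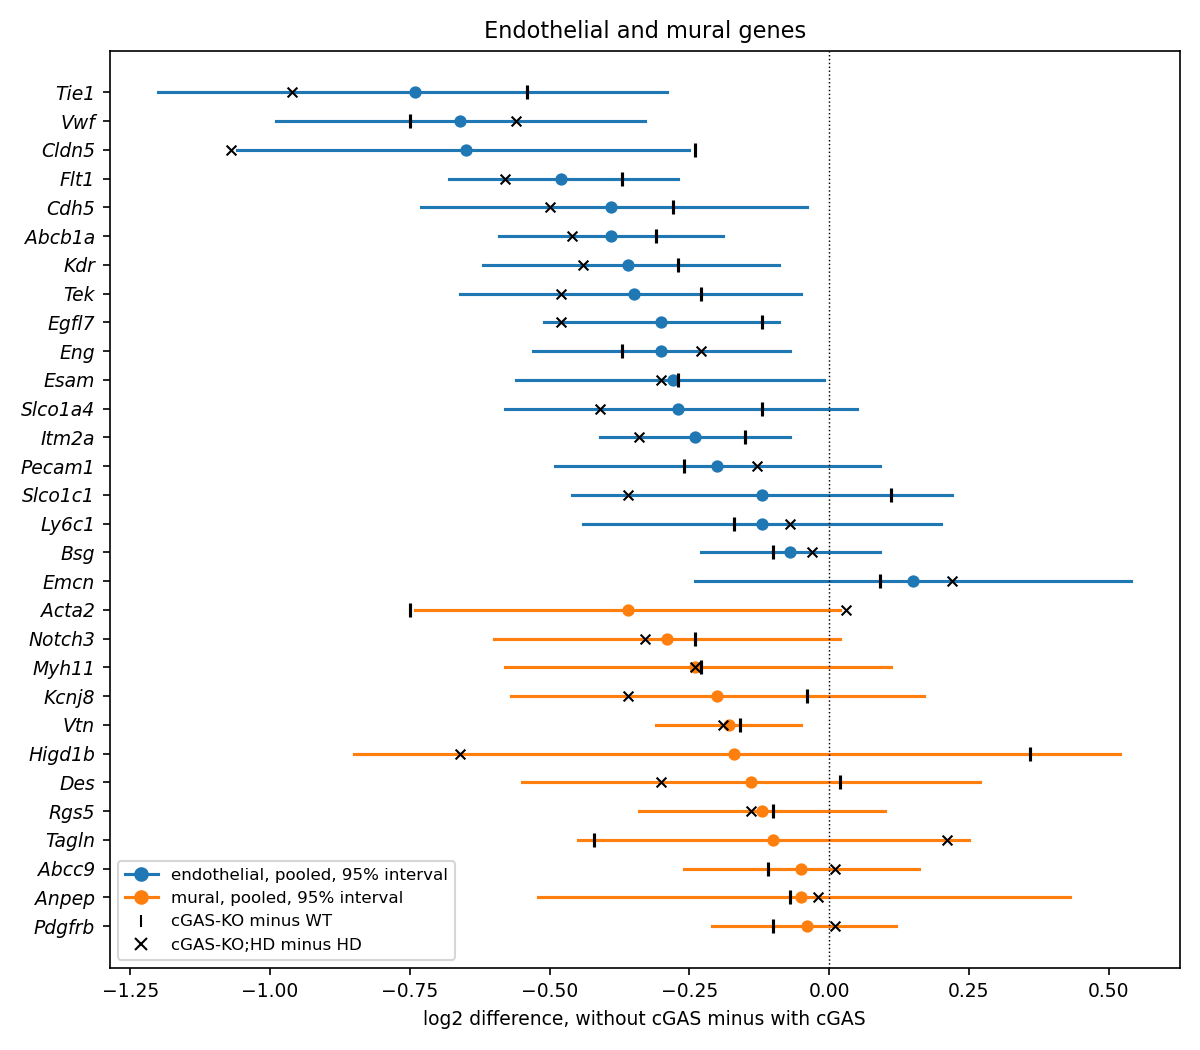
Pooled log2 difference with its 95% interval for 18 endothelial (blue) and 12 mural (orange) genes, with the difference in each knock-in genotype as a tick (cGAS-KO minus WT) or cross (cGAS-KO;HD minus HD). The endothelial points run from -0.74 to 0.15 with 17 of 18 below zero, and the mural points from -0.36 to -0.04.

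The 12 genes with the smallest p in the lower direction, among genes of at least 1 CPM with the same sign in both knock-in genotypes, were Mir6236, CT010467.1, Flt1, Ciart, Ptprb, Slc6a8, 4632428C04Rik, Vwf, Itga7, Cfap99, Robo4 and Vwa5b2. Their log2 differences ran from -0.83 to -0.18 and their edgeR adjusted p from 0.417 to 0.54. In 10 of the 12 the libraries did not overlap in either knock-in genotype, a pattern shown by 114 genes (0.531%) in the lower direction. These genes were picked for their p, so that count is a description.

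Mir6236 and CT010467.1 had the smallest p among these genes of at least 1 CPM. The Mir6236 gene is annotated over 123 bases, and mmu-miR-6236 lies inside it at chr9:110281353-110281371 on the plus strand (RefSeq, GRCm38.p6). Its mature sequence is shown with the seed in capitals because the gene heads the comparison, although a poly(A)-selected library does not measure a mature miRNA.
mmu-miR-6236: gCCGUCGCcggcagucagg
Reads over the gene were at 13.4, 9.40 and 10.3 CPM in WT, 6.76, 6.58 and 5.44 in cGAS-KO, 9.83, 8.14 and 7.00 in HD and 4.14, 5.04 and 5.96 in cGAS-KO;HD. The groups were separate in both genotypes, and Mir6236 differed by -0.77 ± 0.12 (edgeR adjusted p = 0.417, DESeq2 adjusted p = 3.43e-05). CT010467.1 is annotated as ribosomal RNA on the minus strand of chromosome 17 at 39846353 to 39848827. It took 1970, 2010 and 1860 CPM in WT, 1150, 1370 and 1470 in cGAS-KO, 1250, 1430 and 1340 in HD and 1080, 1130 and 1200 in cGAS-KO;HD. Its pooled difference was -0.40 ± 0.08 (edgeR adjusted p = 0.54, DESeq2 adjusted p = 0.0127), and it was -0.55 without and -0.24 with the knock-in allele. Poly(A) selection removes most ribosomal RNA, and whether these counts are what the selection left was not tested. The mitochondrial ribosomal RNA mt-Rnr1 stood at 0.42 ± 0.19, and mt-Rnr2 at 0.23 ± 0.12 (interval -0.03 to 0.49). With cGAS-KO replicate 3 left out mt-Rnr1 was at 0.21 and mt-Rnr2 at 0.11.

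Ciart, a repressor in the circadian clock, measured 22.9, 24.3 and 28.7 CPM in WT, 15.3, 16.9 and 15.8 in cGAS-KO, 10.4, 11.1 and 11.3 in HD and 8.63, 9.75 and 9.89 in cGAS-KO;HD. It was lower without cGAS in both genotypes with no overlap (-0.44 ± 0.09, edgeR adjusted p = 0.54, DESeq2 adjusted p = 0.0396), more so without the knock-in allele (-0.66) than with it (-0.22), with an unadjusted edgeR interaction p of 0.00872 and an adjusted p of 1. Of 25 clock genes 2 were lower and 2 higher at an unadjusted edgeR p under 0.05 (16%, against 9.09% of all genes), with a median of -0.03. Dbp, an output factor, was at -0.14 ± 0.07, and the activators Clock and Arntl at 0.21 ± 0.08 and 0.23 ± 0.08. With WT replicate 1 and cGAS-KO replicate 3 left out Clock and Arntl were at 0.11 and 0.13.

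Among the other lower genes Slc6a8, the creatine transporter, had narrow groups. It was at 93.8, 99.0 and 97.3 CPM in WT against 85.9, 88.2 and 87.4 in cGAS-KO, and at 81.4, 87.8 and 88.7 in HD against 72.7, 74.8 and 75.1 in cGAS-KO;HD. The groups were separate in both pairs although the difference was only -0.18 ± 0.04, a decrease of 11.8%. Itga7, a laminin receptor of astrocytes and vessel walls, was at -0.58 ± 0.14. The uncharacterised genes Cfap99, Vwa5b2 and 4632428C04Rik were at -0.54 ± 0.13, -0.30 ± 0.07 and -0.80 ± 0.19. Gm44663, the DESeq2 call that falls below 1 CPM and is named after its values were seen, was at 0.624, 0.480 and 0.612 CPM in WT, 0.227, 0.159 and 0.288 in cGAS-KO, 0.378, 0.322 and 0.317 in HD and 0.0728, 0.108 and 0.142 in cGAS-KO;HD. It was separate in both genotypes, at -1.48 ± 0.26 (DESeq2 adjusted p = 0.00776).

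**Figure D5:**
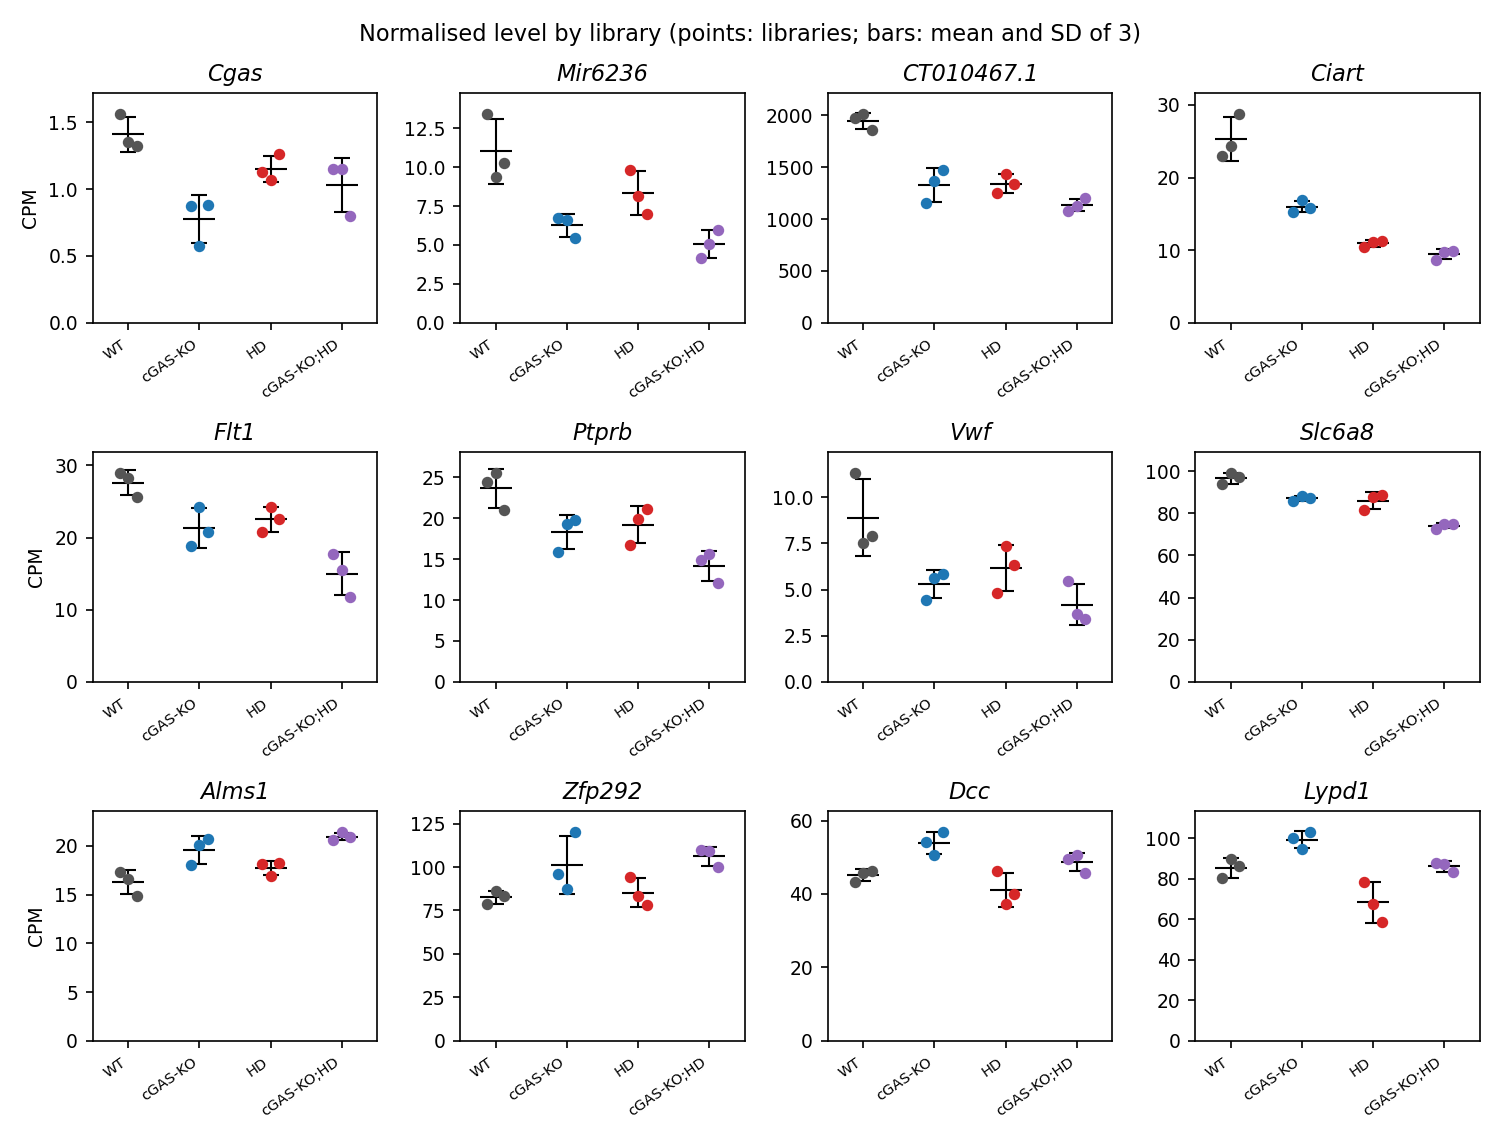
CPM of 12 genes in each library (points), with the mean and SD of the 3 libraries of a group (bars), from 0 on a linear axis. Without cGAS Mir6236, CT010467.1, Ciart, Flt1, Ptprb and Slc6a8 lie lower and Alms1, Zfp292 and Lypd1 higher in every library than in the matching group with cGAS, while Cgas and Vwf overlap in the knock-in pair.

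The 12 genes with the smallest p in the higher direction were Alms1, Dcc, Lypd1, Zfp292, Gm19522, Cr1l, Dach2, Rif1, Sox1, Sp4, Sfpq and Akap9. Their log2 differences ran from 0.17 to 0.59, all with an edgeR adjusted p of 0.54, and DESeq2 called none of them. In 11 of the 12 the libraries did not overlap in either genotype, a pattern shown by 107 genes (0.498%) in the higher direction. These genes too were picked for their p, so that count is a description.

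Alms1, a centrosome and cilium base protein, was at 17.3, 16.6 and 14.9 CPM in WT against 18.0, 20.1 and 20.7 in cGAS-KO, and at 18.1, 16.9 and 18.2 in HD against 20.6, 21.4 and 20.9 in cGAS-KO;HD. That is 0.26 ± 0.06, an increase of 19.4%, with no overlap. Zfp292, a large zinc finger protein, was at 78.8, 86.2 and 83.1 CPM in WT against 96.1, 87.5 and 120 in cGAS-KO, and at 94.2, 83.6 and 78.2 in HD against 110, 109 and 100 in cGAS-KO;HD. The groups lie close but do not overlap, and the difference was 0.31 ± 0.07. Akap9, a scaffold of the Golgi and centrosome, was at 0.22 ± 0.06, Rif1, a regulator of replication timing and DNA break repair, at 0.17 ± 0.04, and the nuclear RNA-binding protein Sfpq at 0.24 ± 0.06.

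Lypd1, a modulator of nicotinic receptors, was at 80.3, 89.8 and 86.2 CPM in WT against 100, 94.8 and 103 in cGAS-KO, and at 78.7, 67.6 and 58.7 in HD against 88.0, 87.3 and 83.2 in cGAS-KO;HD, separate in both pairs (0.28 ± 0.06). Dcc, the netrin receptor, was at 43.3, 45.7 and 46.3 CPM in WT against 54.1, 50.7 and 56.8 in cGAS-KO, and at 46.2, 37.2 and 40.0 in HD against 49.6, 50.7 and 45.8 in cGAS-KO;HD, where the ranges overlap by one value (0.25 ± 0.06). The transcription factors Sox1, Sp4 and Dach2 were at 0.27 ± 0.07, 0.25 ± 0.06 and 0.59 ± 0.14.

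Genes on the higher side had longer transcripts. The median summed exon length of the genes higher at an unadjusted edgeR p under 0.05 was 5823 bases, against 3393 for the lower ones and 3486 for all tested genes. The higher genes were also more often protein coding, at 84.7% against 73.9% of the lower ones and of all genes, so the lengths compare unlike mixtures of gene types. Of the 12 higher genes above, 9 had more than 5000 bases, and of the 12 lower ones 7. With WT replicate 1 and cGAS-KO replicate 3 left out the medians were 4848 for the higher, 3802 for the lower and 3527 for all. Protein-coding genes of at least 1 CPM were also described on their own. Their median log2 difference was -0.02 for lengths of 204 to 2656 bases and 0.05 for 7848 to 123179 bases. Without those libraries these values were -0.003 and 0.027.

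Genes of medium spiny neurons, the main cells of the striatum, leaned higher without cGAS. Of 57 tested members 9 were higher and 0 lower at an unadjusted edgeR p under 0.05 (15.8%, against 5.02% of all genes higher), 3 lay below zero, and the median was 0.18. It was 0.17 without and 0.15 with the knock-in allele. All 57 were bounded within 2-fold and 44 within 1.5-fold. Foxp2, a transcription factor of these neurons, had the smallest p of this list and also of the cortical projection neuron list, to which it belongs as well. It measured 61.7, 60.2 and 68.6 CPM in WT against 78.0, 75.3 and 77.1 in cGAS-KO, and 74.5, 66.6 and 64.1 in HD against 77.2, 73.4 and 69.6 in cGAS-KO;HD (0.19 ± 0.06). It was separate in the first pair and overlapped in the other.

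Neuropeptide and receptor genes of these neurons varied more between libraries. Tac1, the substance P precursor of the direct pathway, was at 94.3, 119 and 142 CPM in WT against 163, 130 and 174 in cGAS-KO, and at 101, 77.8 and 52.7 in HD against 116, 94.7 and 93.4 in cGAS-KO;HD. Both pairs overlapped, and the pooled difference was 0.39 ± 0.15. Drd2, the dopamine receptor of the indirect pathway, was at 0.38 ± 0.19, and Penk, the enkephalin precursor, at 0.30 ± 0.15. Summed over the list the level was 10600 to 14900 CPM in WT, 13000 to 15600 in cGAS-KO, 4820 to 7770 in HD and 6840 to 7100 in cGAS-KO;HD, with overlap in both pairs.

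The same libraries differed in tissue makeup. With WT replicate 1 and cGAS-KO replicate 3 left out the medium spiny neuron list had 5 members higher and a median of 0.12. Cortical projection neuron genes had a median of 0.32 that was 0.05 without those libraries. Their median was 0.16 between cGAS-KO and WT and 0.45 between cGAS-KO;HD and HD, and the list sums of the latter pair did not overlap. Choroid plexus genes lay below zero in 23 of 23 with a median of -0.30 that became 0.18 without those libraries. Oligodendrocyte genes had 4 of 30 lower at an unadjusted edgeR p under 0.05 (13.3%, against 4.07% of all genes). These were Mag, Mog, Hapln2 and Trf, at -0.31, -0.24, -0.32 and -0.28. The list median was -0.10, and without those 2 libraries it was -0.03 with 2 members lower. Mitochondrially encoded genes had a median of 0.26, and -0.04 without cGAS-KO replicate 3 alone. Their share of counts averaged 7.68% without cGAS and 6.40% with it (exact two-sided permutation test within genotypes, p = 0.255). The part of tissue makeup in the neuronal lists was not tested.

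Genes next to Cgas were examined because a knockout allele can bring flanking DNA of another strain with it. Of 189 genes that start within 5 Mb of Cgas on chromosome 9, 68 were tested, 3 were lower and 7 higher at an unadjusted edgeR p under 0.05 (14.7%, against 9.09% of all genes), and the median was 0.03. Hcrtr2, an orexin receptor, was at 3.36, 2.69 and 3.77 CPM in WT against 4.32, 4.42 and 3.95 in cGAS-KO, and at 4.33, 4.43 and 3.99 in HD against 5.71, 5.09 and 6.30 in cGAS-KO;HD. It was separate in both pairs, at 0.40 ± 0.10 (edgeR adjusted p = 0.54). The others higher were Irak1bp1 (0.30), Gclc (0.22), the SUMO protease Senp6 (0.15), Phip (0.13), Filip1 (0.32) and the serotonin receptor Htr1b (0.33), and those lower were Bmp5 (-0.45), Myo5c (-0.35) and Dppa5a (-1.61, below 1 CPM). With cGAS-KO replicate 3 left out Irak1bp1 was at 0.19, Gclc at 0.14 and Senp6 at 0.10, and with WT replicate 1 left out as well 1 gene was lower and 5 higher. In a window of 2 Mb 12.1% of 33 tested genes were past that threshold, and in one of 10 Mb 9.62% of 156, near the share of all genes, with medians of 0.01 and 0.03.

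Genes known to differ between C57BL/6 substrains gave 2 of 7 lower at an unadjusted edgeR p under 0.05, against 4.07% of all genes, and 1 of 7 with cGAS-KO replicate 3 left out. Entpd4b was at 2.09, 1.52 and 1.72 CPM in WT against 1.49, 1.22 and 1.20 in cGAS-KO, and at 2.14, 1.91 and 1.63 in HD against 1.21, 1.26 and 1.48 in cGAS-KO;HD, separate in both pairs (-0.49 ± 0.14). Its near-identical neighbour Entpd4 was at -0.32 ± 0.13, and reads may be shared between them. Nnt was at 0.29 ± 0.27.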

How the data were processed

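RNA of striatal tissue was poly(A)-selected and made into directional libraries, per the labels' protocols. For each library the authors deposited whole-number read counts per Ensembl gene. Aligner, genome build, annotation and counting rule, not given in the sources used here, could shift single values. Symbols and positions are from GENCODE M21 (GRCm38), which matched 55227 gene identifiers (99.5%). Genes without a symbol took up to 0.0062% of the counts in each library. Groups and replicate numbers came from the sample titles, with 3 mice per group.

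Genes with at least 10 counts in at least 3 libraries were fitted with edgeR 4.0.16 (TMM scaling, robust quasi-likelihood F test, R 4.3.3) with terms for the knock-in allele and loss of cGAS, which leaves 9 residual degrees of freedom, and p-values were adjusted by Benjamini-Hochberg over 21482 genes. Errors of log2 differences are standard errors (SE) from that fit, and 95% intervals use its t quantiles. The effect within each genotype and the interaction come from a fit of 4 group means. CPM are TMM-scaled. Single values were tested by exact permutation within genotypes (400 arrangements). Scripts were tested on simulated data first. Alternatives were DESeq2 1.42.0, limma-voom 3.58.1, other scalings, filters and covariates, a replicate block, and leaving out libraries.

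The comparison, 32 gene lists and members were chosen with earlier results of these data known. Lists are described by counts and medians and get no test. Named genes are Cgas, Htt, the 12 with the smallest p each way (at least 1 CPM, same sign in both genotypes, leaving out a list of sex-linked genes, though X-linked Slc6a8 and Dach2 stay), the member of each list with the smallest p, and genes within 5 Mb of Cgas with an unadjusted p under 0.05. Other genes were named after their values were seen.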

Additional observations from a re-analysis of the deposited data

Results flagged for a closer look

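Mid1-ps1, a pseudogene annotated on the Y chromosome that resembles Mid1 and may share its reads, was the one gene of 21482 (0.00466%) whose difference with loss of cGAS depended on the knock-in genotype, and it is named after its values were seen. It measured 0.490, 0.394 and 0.370 CPM in WT, 0.585, 0.334 and 0.559 in cGAS-KO, 6.96, 5.50 and 6.84 in HD and 0.845, 0.742 and 1.08 in cGAS-KO;HD. The log2 difference was 0.23 ± 0.26 without the knock-in allele and -2.85 ± 0.22 with it, and the interaction was -3.08 ± 0.34 (edgeR adjusted p = 0.0167). The 3 HD libraries alone were high, and the pooled value of -1.55 ± 0.46 for Mid1-ps1 averages these unlike effects.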

How the results depend on the processing

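The count of genes called for loss of cGAS was 0 in the main analysis and in 24 of 26 alternatives. DESeq2 called 5, and a fit of HD and cGAS-KO;HD alone called 1, which was Mid1-ps1 (-2.86 ± 0.19, edgeR adjusted p = 0.000165). The cause of the difference between tools was not tested. Leaving out each library in turn gave 0 calls throughout, 13154 to 14142 genes bounded within 1.5-fold and 17006 to 17466 within 2-fold. With the replicate number as a block there were 0 calls, with 13706 and 17359 genes bounded. Of 18 pairs with the same number 2 had deviations that correlated above 0.1 (median -0.06, against 0.02 for different numbers), and 3 of 12 libraries correlated best with their own number, so the numbers were not taken to pair libraries. Calls for the knock-in allele ranged from 2038 to 3745 over single libraries left out, and DESeq2 called 4028. Most of the 63 named genes were picked for their p in these same libraries, and hardly any gene was called in any setting. How often their values held is therefore a description. For these genes, 1567 of 1572 alternative values kept their direction and their side of the threshold. DESeq2 took 4 past it (Mir6236, CT010467.1, Flt1 and Ciart), and Kdm6a, an X-linked gene at 0.15 ± 0.18, reached -0.02 without cGAS-KO replicate 3, with a range of -0.02 to 0.22 over libraries left out.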

Other observations

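All 39 autophagy and lysosome genes lay within 1.5-fold with a median of 0.01, and the member with the smallest p was Atg3, which joins LC3 to lipid, at 0.14 ± 0.05. Of 47 DNA repair and micronucleus genes 46 lay within 1.5-fold, with a median of 0.02. At an unadjusted edgeR p under 0.05, 1 was lower and 1 higher (4.26%, against 9.09% of all genes). The lower one was Ogg1, which removes oxidised guanine, at 5.48, 5.87 and 6.04 CPM in WT, 5.67, 5.06 and 4.56 in cGAS-KO, 6.33, 6.30 and 6.44 in HD and 5.52, 5.24 and 5.60 in cGAS-KO;HD (-0.20 ± 0.08), separate only with the knock-in allele. All 25 genes of mitochondrial DNA upkeep and release lay within 1.5-fold, among them the nuclease Endog at -0.25 ± 0.11. Of 52 genes of cholesterol and lipid synthesis 50 lay within 1.5-fold, with a median of -0.04. Of 36 genes of p53, senescence and cell death 28 did, 3 were not bounded within 2-fold (Tnfrsf10b, Cdkn2a and Mlkl, all under 1 CPM), and Pmaip1, a death-promoting p53 target, was at -0.49 ± 0.15.

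Astrocyte genes had 0 of 22 past an unadjusted edgeR p of 0.05 and a median of -0.07. Reactive astrocyte genes had 2 of 33 lower at that threshold (6.06%, against 4.07% of all genes). The smallest p was that of Emp1, a membrane protein also made by endothelium. It was at 2.41, 1.95 and 1.48 CPM in WT against 1.30, 1.35 and 1.32 in cGAS-KO, and 2.42, 2.27 and 2.02 in HD against 1.43, 1.70 and 1.44 in cGAS-KO;HD. Emp1 was separate in both pairs (-0.55 ± 0.14). Among 24 striatal interneuron genes 3 were higher and 1 lower at that threshold (16.7%, against 9.09% of all genes). Nos1, which makes nitric oxide, stood at 0.24 ± 0.07, with 0.10 without and 0.39 with the knock-in allele (edgeR interaction, unadjusted p = 0.0398, adjusted p = 1).

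Among the 16 genes of at least 1 CPM that differed by more than 2-fold, Mid1-ps1 and Dtl (1.15 ± 0.50) had an unadjusted edgeR p under 0.05, and the other 14 did not. Dtl was at 0.75 with cGAS-KO replicate 3 left out and at 0.60 with WT replicate 1 left out as well. Neurod6, a marker of cortical neurons, was at 1.51 with an interval of -0.38 to 3.39, and Hcrt, the orexin precursor of the hypothalamus, at -1.12 with an interval of -4.21 to 1.97. With both libraries left out Hcrt was at 0.44 and Neurod6 at 0.88.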
